A study of Mus musculus with 3 samples.

Results

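Pou5f1, Nanog, Sox2, Klf4 and Myc were followed in the RNA of mouse 2-cell embryos. The 5 genes were chosen by name, as transcription factors of the pluripotency network, and each was taken as its gene span on mm9, so that the spans together cover 24.7 kb. On mm9 the spans are chr17:35642977-35647722 for Pou5f1, chr6:122657507-122664651 for Nanog, chr3:34548927-34551382 for Sox2, chr4:55540011-55545347 for Klf4, which is on the minus strand, and chr15:61816893-61821916 for Myc. They stand against 545132 windows of 5 kb in the nuclear genome. The study holds 1 group of 3 litters, numbered 1 to 3, of embryos collected at embryonic day 1.5. The mothers were of mixed strain, LSD1 FL/FL and ZP3::Cre negative, so every litter had a mother with floxed copies of the histone demethylase gene LSD1 and without the Cre transgene. The fathers are given as wild type CB6 in the account of the crosses and as C57/Bl6J in the growth protocol. Each library pools the embryos of a litter, so a value is a mean over embryos, and no contrast between conditions exists. Before sequencing the RNA was copied into cDNA and amplified at constant temperature by SPIA. The 3 libraries held 32431630 to 40474940 nuclear alignments of 72 bases, of which 64.95% to 74.04% repeated a start position already used in the same library.

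Pou5f1 is a POU-domain protein, Sox2 an HMG-box protein and Nanog a homeodomain protein, and together they maintain the transcription of pluripotent cells of the inner cell mass and of embryonic stem cells. Klf4, a zinc finger protein, and Myc, a basic helix-loop-helix leucine zipper protein, are known for turning somatic cells into pluripotent ones together with Pou5f1 and Sox2. At the 2-cell stage of the mouse, RNA stored in the egg is being degraded and the embryo's own genome starts to be transcribed. In an unstranded library of pooled embryos, fewer cells with a transcript and less transcript per cell cannot be told apart, nor can stored and newly made RNA.

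Stretches of Pou5f1, Nanog and Klf4 to which values below refer are shown first, as the 5′ to 3′ sequence of the transcript in GENCODE M21. Exons 3 and 4 of Pou5f1, which encode parts of the POU-specific domain and of the homeodomain, lie at chr17:35509408-35509538 and chr17:35509981-35510139 of GRCm38, plus strand. Capitals mark bases covered by alignments in all 3 litters, 128 of 131 and 151 of 159.
Pou5f1 exon 3: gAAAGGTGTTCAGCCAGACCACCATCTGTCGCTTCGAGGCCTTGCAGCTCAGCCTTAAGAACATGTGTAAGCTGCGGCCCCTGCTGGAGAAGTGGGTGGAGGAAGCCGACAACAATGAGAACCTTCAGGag
Pou5f1 exon 4: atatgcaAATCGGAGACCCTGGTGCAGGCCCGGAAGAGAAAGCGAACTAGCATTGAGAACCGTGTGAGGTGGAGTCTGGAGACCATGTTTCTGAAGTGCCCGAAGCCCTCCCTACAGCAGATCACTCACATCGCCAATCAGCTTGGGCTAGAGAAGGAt

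Exon 2 of Nanog, at chr6:122711538-122711803 of GRCm38, plus strand, encodes part of the homeodomain. It was the Nanog exon with the highest density in litter 1, and capitals mark the 260 of 266 bases covered in at least 1 litter.
Nanog exon 2: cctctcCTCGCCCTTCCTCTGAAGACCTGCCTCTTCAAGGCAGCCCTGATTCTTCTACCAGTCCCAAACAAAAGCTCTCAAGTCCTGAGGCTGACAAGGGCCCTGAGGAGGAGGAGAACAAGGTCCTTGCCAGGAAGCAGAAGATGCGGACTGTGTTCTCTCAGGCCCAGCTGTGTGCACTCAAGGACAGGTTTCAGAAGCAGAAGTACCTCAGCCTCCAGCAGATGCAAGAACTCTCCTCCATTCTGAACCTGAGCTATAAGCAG

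The last exon of Klf4 held most of the alignments of this gene. Its coding part, at chr4:55528128-55528300 of GRCm38, minus strand, encodes zinc fingers. Only this part is shown, though most Klf4 alignments lay in the untranslated part of the exon. Capitals mark bases covered in all 3 litters, 54 of 173.
Klf4 exon 5: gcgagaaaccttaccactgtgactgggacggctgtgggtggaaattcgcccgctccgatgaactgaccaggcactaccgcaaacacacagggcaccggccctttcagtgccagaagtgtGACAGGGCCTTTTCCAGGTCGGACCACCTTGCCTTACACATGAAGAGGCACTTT

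Per kb of gene span, introns included, Myc and Klf4 had the most RNA, Pou5f1 came next, and Nanog and Sox2 were low. Per kb of spliced transcript the means of Klf4 and Pou5f1 changed places, as given below. Levels are RPKM, the alignments that start in the span per kb of span per 1000000 nuclear alignments. Myc had 1097, 581 and 725 alignments in litters 1 to 3, which is 6.42, 3.57 and 3.57 RPKM, with a mean of 4.52 ± 1.65 (SD, n = 3). Litter 1 was highest, and the other litters were alike. Klf4 had 621, 710 and 478 alignments, or 3.42, 4.10 and 2.21 RPKM, with a mean of 3.25 ± 0.957. Litter 3 was lowest for Klf4, and litter 2 highest. Pou5f1 had 143, 445 and 348 alignments, or 0.886, 2.89 and 1.81 RPKM, with a mean of 1.86 ± 1.00. Litter 1 was lowest, 3.26 times below litter 2, and its 95% exact Poisson interval of 0.747 to 1.04 RPKM did not reach the other litters' intervals.

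Nanog had 92, 9 and 16 alignments, or 0.379, 0.0388 and 0.0553 RPKM, with a mean of 0.158 ± 0.192 (SD, n = 3). This mean rests on litter 1, without which it was 0.0471. Sox2 had 5, 5 and 15 alignments, or 0.0599, 0.0628 and 0.151 RPKM, with a mean of 0.0912 ± 0.0517. Litter 3 was highest for Sox2, but the 95% exact Poisson intervals overlapped, at 1.62 to 11.7 alignments for each of litters 1 and 2 and 8.40 to 24.7 for litter 3. Every count of these 2 genes was above the 3 alignments that a count of 0 allows, which equal 0.0302 to 0.0377 RPKM over the Sox2 span and 0.0104 to 0.0129 over the Nanog span. Intervals and limits take in counting error alone, since reads amplified without molecular identifiers can stem from one molecule.

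**Figure D1:**
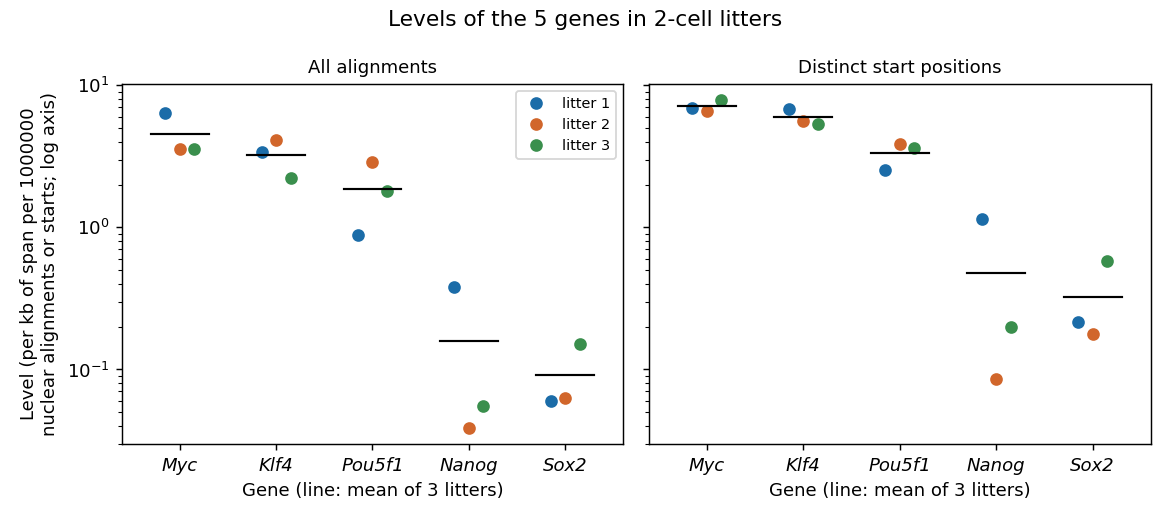
Level of each gene in each litter on a log axis, per kb of span per 1000000 nuclear alignments on the left and per 1000000 distinct nuclear start positions on the right; points are litters and lines are means of 3 litters. Myc, Klf4 and Pou5f1 lie above Nanog and Sox2 in every litter, and Nanog spreads most, from 0.0388 to 0.379 RPKM on the left.

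At 1 RPKM or more in all 3 litters stood 2 of the 5 genes, Klf4 and Myc, against 2.35% of windows of 5 kb in the nuclear genome. Pou5f1 reached that level in 2 of 3 litters, and Nanog and Sox2 in 0 of 3. By mean level, 1.27% of windows were at or above Myc, 1.72% at or above Klf4 and 2.77% at or above Pou5f1. For Nanog the share was 12.3% and for Sox2 15.0%. The windows are not genes, so these shares give a place within the genome and no rank among genes.

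The order was set by the mean levels of these same litters, so the tests of neighbours lend it no separate support. Of the neighbours in this order, only Pou5f1 and Nanog had levels in litters that did not overlap. Pou5f1 exceeded Nanog 2.34, 74.4 and 32.7 fold in litters 1 to 3, or by 3.03 ± 1.77 on the log2(RPKM + 0.1) scale (SD, n = 3). Over litters, the exact permutation test by sign flips, two-sided, gave p = 0.25, the smallest that 3 litters allow, and p = 0.5 after Benjamini-Hochberg adjustment over the 4 neighbouring pairs. Klf4 exceeded Pou5f1 3.86, 1.42 and 1.22 fold (exact permutation p = 0.25, adjusted p = 0.5), but per kb of the spliced transcript the order of their means turned, with Pou5f1 at 6.49 ± 3.50 and Klf4 at 5.72 ± 1.69. These values divide all alignments of the span, also those outside exons, by the transcript length. Myc was above Klf4 in 2 of 3 litters, with ratios of 1.88, 0.869 and 1.61 (exact permutation p = 0.5, adjusted p = 0.667). Nanog was above Sox2 in litter 1 alone, with ratios of 6.32, 0.619 and 0.367 (exact permutation p = 1, adjusted p = 1). Myc stayed highest per kb of transcript, at 9.71 ± 3.54, and Nanog and Sox2 stood at 0.509 ± 0.619, or 0.152 without litter 1, and 0.109 ± 0.0618.

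For Myc, Klf4 and Pou5f1, litters differed less in the number of places where alignments began than in the number of alignments. Distinct start positions numbered 329, 375 and 416 for Myc in litters 1 to 3, and scaled to 1000000 distinct nuclear starts and 1 kb of span they came to 6.92, 6.57 and 7.88. Litter 1 was thus highest by RPKM but not by distinct starts, of which litter 3 had most on either scale. The share of Myc alignments that repeated a start was 70.0%, 35.5% and 42.6% in litters 1 to 3. Klf4 had 345, 343 and 301 distinct starts, and between the highest and the lowest litter the scaled value differed 1.27 fold, against 1.85 fold by RPKM. Pou5f1 had 113, 209 and 181, with a scaled range of 1.54 fold against 3.26 fold by RPKM. A short stretch holds few start positions, so distinct starts cannot keep rising with the number of alignments. In Pou5f1 exon 4, of 159 bases, 223 and 198 alignments in litters 2 and 3 had 83 and 81 distinct starts. How far this limit narrowed the ranges was not tested, so they are not read as litters being more alike. Nanog had 77, 7 and 15, and its scaled range of 13.2 fold was wider than the 9.75 fold by RPKM. All 25 Sox2 alignments had different starts within their litter, so no stack of repeats entered its count.

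The coefficient of variation between litters was 36.5% for Myc, 29.5% for Klf4, 53.9% for Pou5f1, 122% for Nanog and 56.8% for Sox2. Windows of 5 kb with a mean level within 1.25 fold of the gene's had medians of 45.3%, 54.4%, 68.7%, 115% and 116% in the same order. Of those windows, 20.9% varied as little as Klf4 or less, and 53.4% as little as Nanog or less. The 5 genes therefore lay within the spread of windows of like level, Nanog near the middle and Sox2 and Klf4 on the low side.

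Alignments kept to exons in Myc, Klf4 and Pou5f1. The annotation at hand is for GRCm38, so no coordinate was carried over: for Nanog, the span of 7145 bases equals in length that of the annotated transcript Nanog-203, which fixed the position, and the exons laid on were those of Nanog-201, whose first exon differs, and for Myc, Klf4 and Pou5f1 the exon pattern was placed where it fitted the coverage best. In the latter 3 genes the share in exons is therefore a description, with no test. An alignment was counted in an exon when at most 8 of its bases lay outside. Klf4 had 1809 of 1809 alignments in exons, which make up 56.8% of its span. Pou5f1 had 139 of 143, 437 of 445 and 345 of 348 in exons, which make up 28.7% of its span. Myc had 1097 of 1097 in exons in litter 1 and 580 of 581 in litter 2, where 1 alignment crossed an exon edge. In litter 3, 663 of 725 Myc alignments were in exons, and the other 62 formed a block in the first intron at chr15:61818623-61818890 of mm9 that held 0 alignments in litters 1 and 2.

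For Pou5f1, the exons were placed at the shift with the fewest alignment bases outside exons, so closeness at their edges is no test. The fit was close at the splice sites of Pou5f1. Its 5 exons each had a covered block, and the block ends that face an intron each lay 2 to 7 bases past the annotated exon edge. The blocks of exons 2, 3 and 4 were 129, 143 and 171 bases long for exons of 121, 131 and 159 bases. A sixth block, at chr17:35645578-35645681 of mm9, lay in the first intron and held 4, 8 and 3 alignments in litters 1 to 3; it is named after its values were seen.

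**Figure D2:**
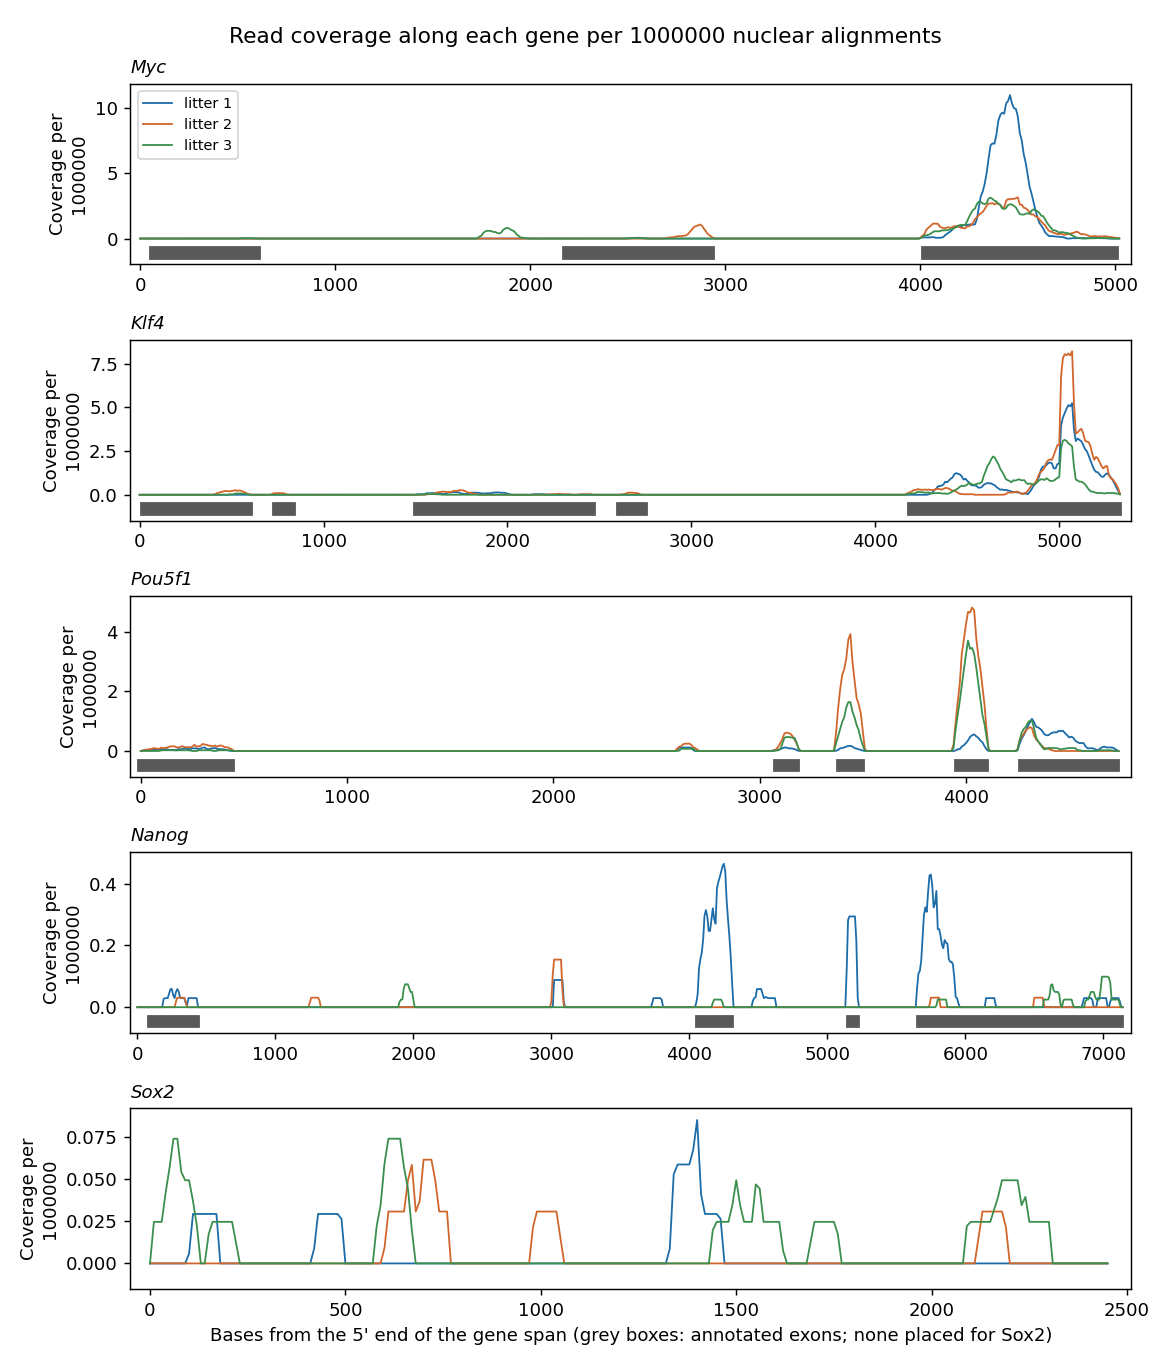
Read coverage per 1000000 nuclear alignments along each gene span, in bases from its 5′ end, with 1 line per litter and annotated exons as grey boxes; the vertical scale differs between panels. Coverage of Myc and Klf4 gathers in the last exon, that of Pou5f1 in exons 3, 4 and 5, that of Nanog mainly in litter 1, and Sox2 shows scattered single alignments.

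Myc and Klf4 were read almost wholly from the last exon. For Myc, which has 3 exons, the last exon held 1095, 534 and 661 alignments in litters 1 to 3, or 94.3% ± 4.79 of the gene (SD, n = 3). Its coverage peaked at 378 reads over a base in litter 1, against 105 and 129 in litters 2 and 3. Exon 2, which encodes the N-terminal part of the protein, held 2, 46 and 1, and exon 1 held 0, 0 and 1. The 46 alignments of litter 2 fell in a block of 245 bases that held 0 in the other litters. For Klf4, which has 5 exons, the last held 598, 667 and 473 alignments, or 96.4% ± 2.51. Klf4 exon 3, which encodes most of the N-terminal part, held 23, 21 and 2, exon 1 held 0, 15 and 3, and exons 2 and 4 held alignments in litter 2 alone, 3 and 4 of them. Since upstream exons were so thinly read, the levels of both genes per kb of span mostly count the 3′ end.

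The 2 genes differed in which part of the last exon was read. By the middle of each alignment, 94.6% ± 3.05 of Klf4 alignments lay in the 3′ untranslated part and 4.49% ± 2.14 in coding sequence (SD, n = 3). For Myc, 82.4% ± 10.7 lay in coding sequence and 14.7% ± 7.12 in the 3′ untranslated part. The untranslated share was 95.8%, 91.1% and 96.9% for Klf4 and 6.47%, 18.4% and 19.2% for Myc in litters 1 to 3, so the ranges did not overlap. These shares follow in part from the lengths, since 173 of 1158 bases of the last Klf4 exon are coding, against 560 of 1005 in Myc. In the Klf4 sequence above, the capitals take in its last 54 coding bases. They begin where the coverage of litter 1 begins, since litters 2 and 3 also covered bases before that point. The capitals therefore do not mark the division between coding and untranslated sequence.

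A single start position stood out in Klf4. The alignment at chr4:55540264-55540335 of mm9, 253 bases from the 3′ end of the span, was counted 84, 138 and 78 times in litters 1 to 3. It made up 13.5%, 19.4% and 16.3% of the gene's alignments, or 16.4% ± 2.96 (SD, n = 3), and was the most used start in each litter. In Myc the most used start held 1.82%, 1.72% and 0.828% of the gene. In GENCODE M21, no BLAST match of 72 bases or more between the Klf4, Myc or Sox2 transcript and another gene's reached 97% identity. Identity was taken over each whole match, and stretches within longer matches were not examined. The genome outside annotated transcripts was not searched.

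Pou5f1 was read mostly from coding exons, and the litters divided over them differently. Exon 4 held 21, 223 and 198 alignments in litters 1 to 3, which is 14.7%, 50.1% and 56.9% of the gene. Exon 3 held 6, 139 and 73, or 4.20%, 31.2% and 21.0%. Both were low in litter 1 and high in litters 2 and 3. Exon 5, the last, went the other way in its share, with 96, 29 and 51 alignments, or 67.1%, 6.52% and 14.7%. Exon 1 held 12, 26 and 4 and exon 2 held 4, 20 and 19. By the middle of each alignment, 94.0% ± 7.49 of Pou5f1 alignments lay in coding sequence (SD, n = 3), with 16 of 18 alignments in its 3′ untranslated part coming from litter 1.

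Per kb of exon, the Pou5f1 level rose from exon 1 to exon 4 in the means. It was 0.897 ± 0.764 RPKM in exon 1, 3.32 ± 2.12 in exon 2, 15.9 ± 15.8 in exon 3, 26.0 ± 20.1 in exon 4 and 3.42 ± 2.11 in exon 5 (SD, n = 3). The means of exons 1 and 3 rest on litter 2, without which they were 0.485 and 7.56, and that of exon 5 on litter 1, without which it was 2.22. In litter 1 exon 5 was highest at 5.82, ahead of exon 4 at 3.88. Exon 4 had 17, 83 and 81 distinct starts and exon 3 had 6, 55 and 44, so both readings place litter 1 lowest there. An exon shorter than a few alignment lengths has few places for an alignment to lie, which lowers its value. Gm19553, annotated on the opposite strand, shares 121 bases of exon 2 and 170 of exon 5 with its own exons and 0 of exons 3 and 4, and reads without strand cannot be divided between the 2 genes. The most similar other transcript was that of the processed pseudogene Gm5712, at 87.2% identity over 1074 bases.

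**Figure D3:**
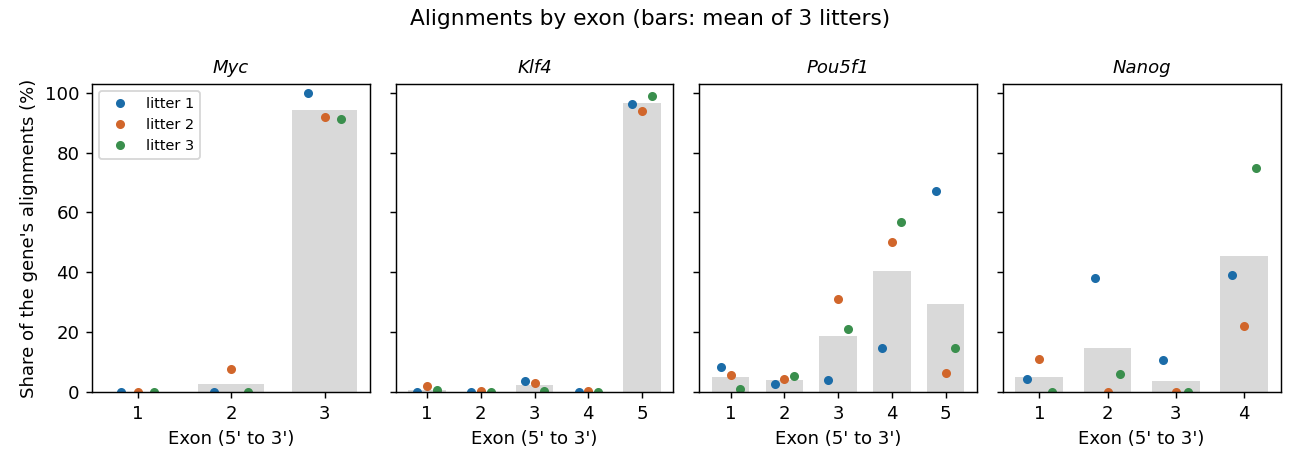
Share of each gene's alignments that lay in each exon, in percent, with litters as points and means of 3 litters as bars; Sox2 has a single exon and is left out. The last exon holds 91.2% to 99.8% for Myc and 93.9% to 99.0% for Klf4, while for Pou5f1 litter 1 has 67.1% in exon 5 and litters 2 and 3 have 50.1% and 56.9% in exon 4.

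Nanog was seen mainly in litter 1, where its coverage had the shape of a spliced transcript. Exon 2 held 35, 0 and 1 alignments in litters 1 to 3, exon 3 held 10, 0 and 0, and exon 4 held 36, 2 and 12. Exon 1 held 4, 1 and 0. In litter 1, 85 of 92 alignments lay in exons and 7 in introns. In litter 2 the counts were 3 and 6, and in litter 3 they were 13 and 3. Alignments per kb were higher in exons than in introns in 3 of 3 litters, by 4.74, 0.13 and 3.25 on the log2 scale, with a mean of 2.71 ± 2.35 (SD, n = 3; exact permutation p = 0.25, the smallest possible). The mean was 1.69 without litter 1, 3.99 without litter 2 and 2.44 without litter 3. With the exons of Nanog-203 instead, which has 5, the differences were 4.56, -0.22 and 3.48, higher in 2 of 3 litters, with a mean of 2.61 ± 2.50 (exact permutation p = 0.5). The direction in litter 2 therefore depends on the transcript chosen, at 3 exon and 6 intron alignments with Nanog-201 and 2 and 6 with Nanog-203.

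In the intron, a block of 84 bases at chr6:122660515-122660598 of mm9 held 3, 5 and 0 alignments, the largest Nanog block in litter 2. In litter 3, 7 of 16 alignments lay in the last 270-base block of the span, within the 3′ untranslated part. Of the 1995 Nanog bases covered in any litter, 22 were covered in all 3. Litters 2 and 3 had only 9 and 16 Nanog alignments, so whether the litters read different stretches cannot be told. A 245-base stretch of the Nanog transcript, bases 887 to 1131, matched the processed pseudogene Nanog-ps1 at 97% identity or more, and alignments there cannot be assigned with certainty.

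Sox2, which has a single exon, was covered in 7 short blocks, of which 0 held alignments in all 3 litters. In litters 1 to 3, 276, 307 and 760 of its 2456 bases were covered, or 18.2% ± 11.0 of the span (SD, n = 3), and 11.9% without litter 3. The highest coverage at any base was 3, 2 and 3 alignments. The blocks with the most alignments, at chr3:34549508-34549696 and chr3:34550264-34550549 of mm9, held 6 each over the 3 litters. Sox2 lies within Sox2ot, a long non-coding RNA gene annotated on the same strand, so these few alignments cannot be assigned to Sox2 with certainty.

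By contrast, covered bases recurred between litters in the higher genes. Of the bases covered in any litter, 60.8% were covered in all 3 for Pou5f1, 53.0% for Myc and 40.6% for Klf4, against 1.10% for Nanog and 0% for Sox2. Covered bases made up 26.0% ± 2.70 of the Pou5f1 span, 24.3% ± 3.35 of Myc, 30.4% ± 4.73 of Klf4 and 11.9% ± 8.03 of Nanog (SD, n = 3), and 7.46% of Nanog without litter 1. More alignments cover more bases, so these shares move with the level.

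The sequence around the genes served as the local background. In the 10 kb on both sides, Klf4 had flanks of 0.0173 ± 0.0194 RPKM and Myc of 0.0789 ± 0.102 (SD, n = 3), both highest in litter 1, without which they were 0.00617 and 0.0205. The spans exceeded them by 4.80 ± 0.449 and 4.78 ± 0.313 on the log2(RPKM + 0.1) scale, in 3 of 3 litters each. Pou5f1 exceeded its flanks, at 0.266 ± 0.229 RPKM and 0.134 without litter 2, by 2.46 ± 0.637 in 3 of 3 litters. Most of the Pou5f1 flank signal lay on the 3′ side, with 104, 336 and 88 alignments against 2, 7 and 3 on the 5′ side. Tcf19 and Cchcr1 are annotated within 10 kb of Pou5f1. With flanks of 50 kb the Pou5f1 difference shrank to 0.23 ± 0.294, with 2 of 3 litters above (exact permutation p = 0.5). These wider flanks held 2162, 8839 and 4434 alignments on the 5′ side and 357, 969 and 535 on the 3′ side. Nearly all of the 5′ signal thus lay more than 10 kb from the gene. Sox2 exceeded its flanks by 0.61 ± 0.125 in 3 of 3 litters, at 0.0277 ± 0.0467 RPKM in the flanks, where 65 of 67 alignments over the litters fell in a single bin of 2.5 kb in litter 3. The Sox2 flanks held 0.00147, 0 and 0.0815 RPKM in litters 1 to 3. The pseudocount of 0.1 RPKM exceeds the mean Sox2 span and flank levels, so it largely sets the size and SD of that difference. The mean flanks of Klf4 and Myc also lie below the pseudocount, which makes their differences smaller. Each comparison with 3 of 3 litters in the same direction had p = 0.25 by the same exact permutation test, the smallest that 3 litters allow.

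Nanog lay below its flanks, at 6.20 ± 0.876 RPKM, with a difference of -4.85 ± 0.886 on the log2(RPKM + 0.1) scale, the span being lower in 3 of 3 litters (exact permutation p = 0.25). Nearly all of the flank signal came from an island of 730 bases at chr6:122648359-122649088 of mm9, 8419 bases before the Nanog span, with 4526, 3360 and 5421 alignments in litters 1 to 3. The flanks held 4560, 3367 and 5435 in all, so the rest of the flanks held 34, 7 and 14 alignments. The island was picked for its high count in these data, so leaving it out could only raise the span against the flanks. Without the island the direction turned: the flanks stood at 0.0270 ± 0.0218 RPKM, and the span was higher in 3 of 3 litters, by 0.79 ± 0.75 on the same log2 scale (exact permutation p = 0.25). These flanks lay below the pseudocount of 0.1 RPKM, which makes the difference smaller. The GRCm38 annotation lists a processed pseudogene, Gm10224, within 10 kb of Nanog, and whether the island belongs to it was not tested.

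**Figure D4:**
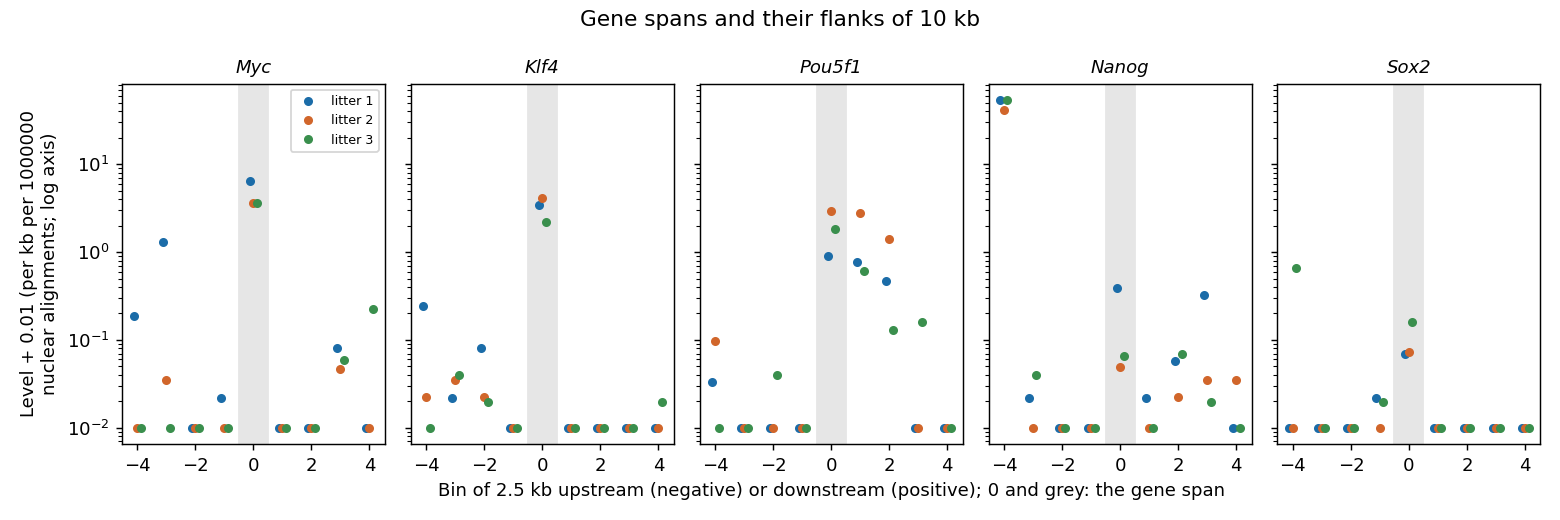
Level of each gene span (bin 0, grey) and of the 4 bins of 2.5 kb on each side, per kb per 1000000 nuclear alignments plus 0.01 on a log axis, with points for litters. Klf4 and Myc stand above their flanks in every litter, Pou5f1 has signal on its 3′ side, and the bin farthest upstream of Nanog holds the island with 3360 to 5421 alignments.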

How the data were processed

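RNA of 2-cell embryos of 3 litters was amplified with SPIA and sequenced, per the labels' protocols. The submitters' processing notes name Bowtie as aligner and mm9 as build, and the aligner's version and settings were not given in the sources. Each deposited file holds the coverage signal of 1 litter from a sorted alignment, per the file headers. Its values are whole numbers of reads over a base, with no scaling seen.

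From this coverage, the start of each ungapped 72-base alignment was recovered on nuclear chromosomes, a step tested on simulated data. Reads across splice junctions are not among such alignments, which lowers the values of short exons. The 5 spans are those named for mm9 with the choice of genes. Levels are alignments starting in the span per kb per 1000000 nuclear alignments (RPKM), and log2 values used a pseudocount of 0.1, except the exon to intron ratio of Nanog, which had none. Covered blocks of at least 72 bases were named, at most 5 a gene, by alignments. Exon lengths and sequences came from GENCODE M21 (GRCm38). Exons of Nanog-201 were placed through the equal span length of Nanog-203 (a shift of 79 bases; the coverage itself fitted best at 81), and those of Pou5f1, Klf4 and Myc by the best fit to distinct alignments within 100 bases. That step, the limit of 8 bases, the coding shares the levels per kb of transcript, the exons of Nanog-203 as an alternative and the Nanog flanks without the island were chosen after seeing the data. The sequence of the Myc exon is not reported here. Similar transcripts were sought with BLAST+ 2.17.0.

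The members and lists were chosen with earlier results of these data known. Lists of other network genes and of markers of other cell types need mm9 gene positions and were not analysed here. Means and SDs run over the 3 litters. The labels do not say whether litters were collected on the same day or from different mothers, so p-values apply to these samples alone. With 3 litters, p is 0.25 whenever all share a direction, however widely they spread. Tests are exact two-sided sign-flip permutation tests. Alternatives were distinct start positions, other scalings, a coverage of 2, flanks of 50 kb, other thresholds and pseudocounts, and leaving out each litter. Computations used scipy 1.17.1, numpy 2.4.6 and numba 0.67.0 under Python 3.11.15, with figures from matplotlib 3.10.9.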

Additional observations from a re-analysis of the deposited data

How the results depend on the processing

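No paired analysis was possible because the study holds 1 group. Of 41 alternative values, 27 stayed within 1 SD, within 1.5 times for counts, or in the same direction for ratios, 12 moved and 2 reversed. The moved values were levels by distinct starts or per kb of transcript, which are other units, or covered shares at a coverage of 2. Such a share cannot be higher than the main one. The mean Pou5f1 log2 difference from its flanks kept its direction but fell from 2.46 to 0.23 with flanks of 50 kb. No stability is read from this tally. The 2 that reversed were chosen after seeing the data: the log2 difference of Klf4 over Pou5f1, -0.071 per kb of transcript against 0.87, and that of the Nanog span over its flanks, 0.79 without the upstream island against -4.85. Leaving out 1 of 3 litters cannot move a mean by 1 SD, so no stability is read from it: levels ran from 3.57 to 4.99 RPKM for Myc, 2.82 to 3.76 for Klf4, 1.35 to 2.35 for Pou5f1, 0.0471 to 0.217 for Nanog and 0.0613 to 0.107 for Sox2. Counting every start position a single time, per 1000000 distinct nuclear starts, gave levels of 7.12 for Myc, 5.95 for Klf4, 3.34 for Pou5f1, 0.475 for Nanog and 0.325 for Sox2. Per kb of transcript the levels were 9.71, 5.72 and 6.49 for Myc, Klf4 and Pou5f1, and 0.509 for Nanog. At a coverage of 2 or more, 20.7% of the Myc, 21.3% of the Pou5f1 and 5.06% of the Sox2 span was covered. At 0.5 RPKM in all litters stood 3 of the 5 genes, against 3.42% of windows, and at 2 RPKM 2 genes, against 1.53%; without litter 1, 3 genes stood at 1 RPKM or more. The exon to intron ratio was not run for Pou5f1, Klf4 and Myc, whose spans equal no annotated transcript in length, or for Sox2, which has no intron. With 5 to 15 alignments a litter, depth limits what can be said of Sox2.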
